A study of Saccharomyces cerevisiae with 29 samples.

Results

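The hexose transporter genes HXT1 to HXT10 of budding yeast were taken by name from the gene features of the L03 reference annotation, which gave 10 genes of the 5857 protein-coding genes analysed. The series itself holds 29 libraries of HydEn-seq, a method that sequences the DNA 5′ ends left where alkali has cut genomic DNA at a ribonucleotide. Of these, 16 libraries came from 7 strains that lack RNH201, the gene for the catalytic subunit of the ribonucleotide-removing enzyme RNase H2, and 13 came from the 7 matching strains with RNH201. Each set held wild-type polymerases, pol1-L868M, pol1-Y869A, pol2-M644G, pol2-M644L, pol3-L612G and pol3-L612M, where POL1, POL2 and POL3 encode the catalytic subunits of the replicative DNA polymerases alpha, epsilon and delta, and all strains were grown in rich YPDA medium with extra adenine. The ends mapped in each library were not analysed here. Every value below is thus a position, length or count on 1 annotated sequence, which has no replicates and gives no estimate of error. For that reason no test was made, and values of the HXT genes stand beside the same quantity over all protein-coding genes, the 10 included.

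Hexose transporters of the HXT family are plasma membrane proteins of the major facilitator superfamily that let glucose and related sugars flow into the cell down their gradient. They differ in affinity, and yeast changes the set it makes as glucose runs out. The membrane sensors Snf3 and Rgt2 report external glucose, the repressor Rgt1 with its partners Mth1 and Std1 holds HXT genes silent when glucose is absent, and the repressor Mig1 shuts off high-affinity transporters when glucose is plentiful. Most of this control acts on sequence before the start codon.

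The 10 genes differed in the affinity that the annotation names for them. It describes 2 of them, HXT1 and HXT3, as low-affinity glucose transporters, 4 of them, HXT2, HXT4, HXT6 and HXT7, as high-affinity transporters, and HXT5 as a transporter of moderate affinity. HXT8, HXT9 and HXT10 are called putative transporters or proteins of unknown function. The annotation also says that glucose represses 6 of the genes, which are HXT2, HXT4, HXT6, HXT7, HXT8 and HXT10. Its descriptions of HXT4, HXT6 and HXT7, for example, name high glucose. For 4 genes, HXT2, HXT3, HXT4 and HXT8, it names induction by low glucose, and for HXT3 by high glucose as well. All 10 carry a qualifier of experimental evidence on their coding sequence, as do 4727 of all genes.

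The family sat on 5 of the 16 chromosomes, and 6 of its 10 genes stood in a pair of tandem clusters. A tandem cluster was taken as HXT genes on the same strand with at most 1 other protein-coding gene between neighbours, and in both clusters no other gene of this annotation lay between them. The remaining HXT2, HXT8, HXT9 and HXT10 stood apart by this rule. The 6 clustered genes were on the minus strand and the 4 others on the plus strand. A shared strand within a cluster is part of the rule.

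The chromosome IV cluster spanned 10.4 kb and held HXT7, HXT6 and HXT3 in order along the chromosome. HXT7 (YDR342C) lay at 1154120 to 1155832. HXT6 (YDR343C) lay at 1159512 to 1161224, and HXT3 (YDR345C) lay at 1162861 to 1164564. HXT6 and HXT7, which the annotation calls nearly identical to each other, were therefore direct neighbours. They were separated by 3679 bp, and their start codons were 5392 bp apart. HXT6 and the low-affinity HXT3 were closer, with 1636 bp between them and 3340 bp from start codon to start codon. This cluster was thus unevenly spaced, with the longer gap between the 2 near-identical genes. The sources used here do not say how reads matching both HXT6 and HXT7 were placed.

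The chromosome VIII cluster spanned 9.32 kb and held HXT4, HXT1 and HXT5. HXT4 (YHR092C) lay at 287136 to 288819, HXT1 (YHR094C) at 290921 to 292633 and HXT5 (YHR096C) at 294677 to 296455. Its spacing was even. HXT4 and HXT1 were 2101 bp apart, and HXT1 and HXT5 were 2043 bp apart. The distances from start codon to start codon were 3814 bp and 3822 bp, a difference of a few bases. Each cluster was part of a longer row of genes on the minus strand, of 7 genes from YDR338C to SVF1 on chromosome IV and of 8 genes from GAR1 to SFB3 on chromosome VIII. The median gene lay in a row of 2, while 6.69% of all genes lay in a row of 7 or more and 3.47% in a row of 8 or more.

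HXT9 (YJL219W) and HXT8 (YJL214W) lay near the left end of chromosome X, at 19498 to 21201 and at 26888 to 28597. They pointed the same way, but 5686 bp and the 3 genes YJL218W, YJL217W and YJL216C separated them. With a limit of 10 kb in place of a limit on genes between, they would also form a cluster, which would put 8 of the 10 genes in clusters. HXT2 (YMR011W), on chromosome XIII at 288073 to 289698, and HXT10 (YFL011W), on chromosome VI at 112347 to 113987, had no other HXT gene on their chromosomes.

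**Figure D1:**
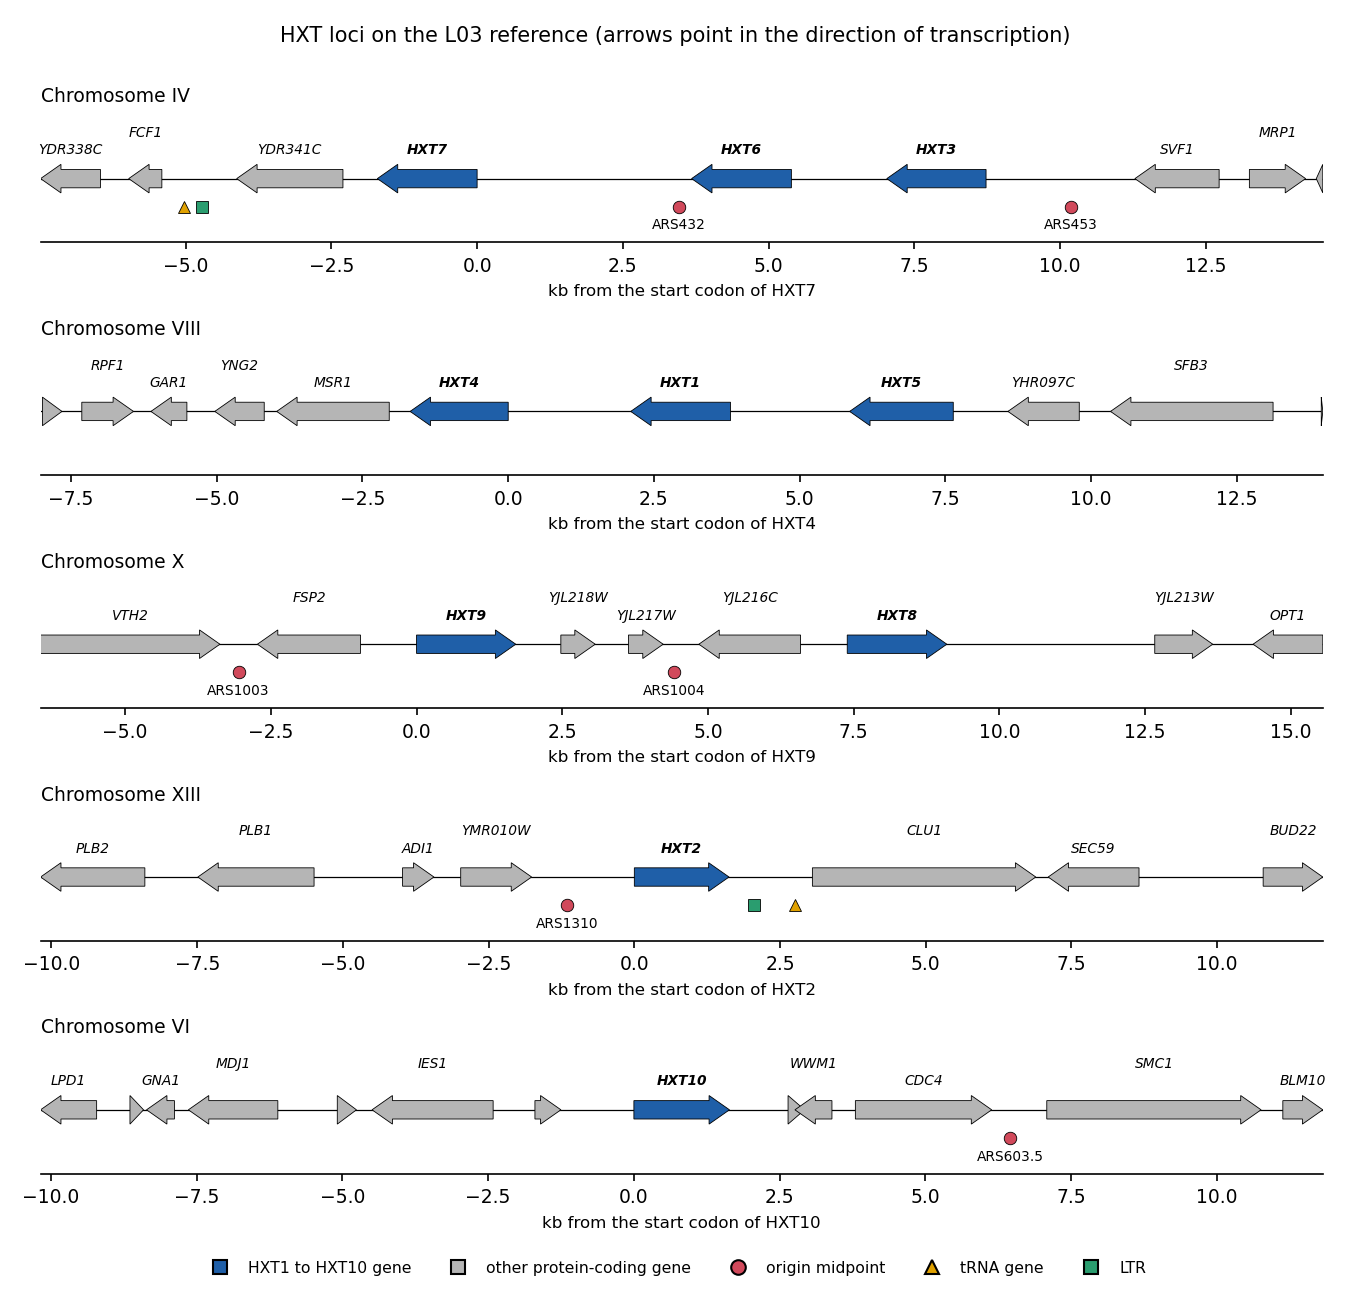
Genes, origins, tRNA genes and LTRs around HXT1 to HXT10 at 5 loci, with distance in kb from the start codon of the first HXT gene drawn and arrows in the direction of transcription. Origins lie on both sides of HXT6 on chromosome IV, and none lies in the window around the chromosome VIII cluster.

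HXT genes had long intergenic gaps on both sides. The gap before the start codon had a median of 1698 bp over the 10 genes, against 459 bp over all genes, and the gap after the stop codon had a median of 1532 bp, against 304 bp. Genes are annotated from start to stop codon, which makes untranslated regions part of the gaps. The gaps inside clusters enter both medians, once from each side.

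The longest gap before a start codon was the 3679 bp ahead of HXT7, longer than the 5′ gaps of 99.1% of genes. HXT3 followed with 2553 bp up to SVF1, a gene linked to cell survival, then HXT4 with 2101 bp and HXT1 with 2043 bp. HXT2 had 1761 bp, HXT6 had 1636 bp and HXT10 had 1251 bp. These 7 genes had a 5′ gap of 1 kb or more, as 16.0% of all genes did. The shortest were the 960 bp of HXT9, the 937 bp of HXT5 and the 800 bp of HXT8. Even these lay above the upper quartile of all 5′ gaps, which was 759 bp, so that 10 of 10 HXT genes exceeded a value that 25.0% of all genes exceed. By the affinity that the annotation names, the 6 low- or high-affinity genes had the 6 longest 5′ gaps, of 1636 bp or more, and HXT5 of moderate affinity and the 3 putative or unknown genes had the 4 shortest, of 1251 bp or less. This division was seen after the values were known, 5 of the 6 genes stand in the 2 clusters, and it was not tested. Clustering divided the genes in nearly the same way. Its exceptions were HXT5, in a cluster with a short 5′ gap, and the lone HXT2 with a long one. The 2 divisions could not be told apart here.

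Gaps after the stop codon were more variable. HXT6 had 3679 bp, the same stretch that lies before HXT7, and HXT8 had 3566 bp before the next gene, YJL213W. HXT1 had 2101 bp, HXT5 had 2043 bp, HXT3 had 1636 bp, HXT2 had 1429 bp and HXT10 had 1004 bp. At the short end HXT9 had 772 bp and HXT7 had 589 bp. HXT4 had 357 bp up to MSR1, the gene for mitochondrial arginyl-tRNA synthetase, and was the HXT gene nearest to the median of all genes. At the outer end of the other cluster, the gene after HXT7 was YDR341C, which the annotation calls an arginyl-tRNA synthetase too. The 2 tandem clusters thus both ended, on their 3′ side, at a gene for an arginyl-tRNA synthetase.

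**Figure D2:**
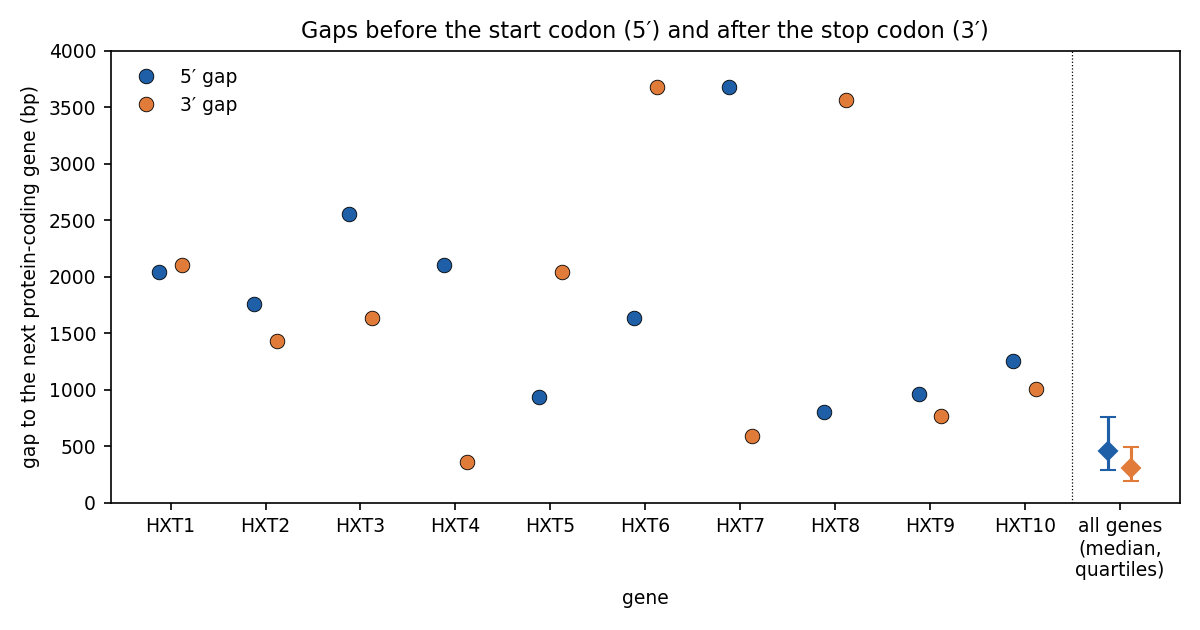
Length in bp of the gap before the start codon (5′) and after the stop codon (3′) of each HXT gene, with the median and quartiles of all genes at the right. All 5′ gaps of the HXT genes, from 800 bp to 3679 bp, lie above the upper quartile of 759 bp, and the 3′ gap of HXT4 is the only 3′ gap under its upper quartile of 492 bp.

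The long gaps went with mostly tandem neighbours. The 5′ neighbour was on the same strand for 8 of 10 HXT genes, against 47.9% of all genes, and the 3′ neighbour for 10 of 10, against 48.4%. Clustered genes fix part of these counts. For the 8 genes with a tandem 5′ neighbour the median gap was 1902 bp, against 405 bp for all such genes. On the 3′ side, where all 10 had a tandem neighbour, the median was 1532 bp, against 400 bp for all such genes. Only HXT8 and HXT9 had a divergent 5′ neighbour, and their gaps of 800 bp and 960 bp stood against a median of 545 bp for divergent neighbours. The upper quartile for divergent neighbours was 846 bp, with HXT8 below it and HXT9 above it.

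HXT8 and HXT9 also had neighbours of like kind. The gene ahead of HXT9 is FSP2 and the gene ahead of HXT8 is YJL216C, and the annotation calls the product of each a protein of unknown function. It adds that YJL216C is similar to alpha-D-glucosidases, and it lists both genes under the same enzyme number, 3.2.1.20, that of alpha-glucosidases. A gene table of the R64 assembly gives these 2 loci the later names IMA4 and IMA5, names used for isomaltases, enzymes that split glucose from isomaltose. Of the 20 neighbours of the HXT genes in L03, 16 were also direct neighbours in that table. The exceptions were both sides of 2 gaps, where the table places YHR093W between HXT4 and HXT1 and YDR344C between HXT6 and HXT3. Neither was used here, so the gaps of 2101 bp and 1636 bp leave them out. The counts of neighbour strand, the rows of genes on 1 strand and the comparisons that use these 2 gaps leave them out too.

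HXT genes split into those close to an annotated origin of replication and those far from any. The median distance from gene midpoint to the nearest origin midpoint was 4.07 kb, against 13.5 kb over all genes, and 6 of 10 genes lay within 5 kb of an origin, against 20.2% of all genes. The other 4 were HXT10 at 5.63 kb and the chromosome VIII cluster. The 274 origins were used as annotated. A qualifier of experimental evidence is attached to 4 origins, and none of the 4 flanks an HXT gene. Whether these origins fire was not examined.

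On chromosome IV, origins lay inside and beside the cluster. ARS432 lay between HXT7 and HXT6 at 1159166 to 1159414, with 97 bp between it and the stop codon end of HXT6. ARS453 lay at 1165914 to 1166136 in the gap before HXT3, 1349 bp from its start codon. The distance to the nearest origin was 1.08 kb for HXT6, the shortest of the family, 2.31 kb for HXT3 and 4.31 kb for HXT7. HXT6 and HXT3 both lay within the 6.74 kb between the midpoints of ARS432 and ARS453, which ranked 20 from the shortest among 258 distances between neighbouring origins. HXT7, on the far side of ARS432, had its next origin on the 3′ side at 45.0 kb.

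The chromosome VIII cluster was the opposite case. HXT4, HXT1 and HXT5 lay 42.1 kb, 45.9 kb and 49.7 kb from ARS813, and between 96.7 kb and 104 kb from ARS818 on the other side. The 146 kb between these origins was the second longest of the 258 distances. The 3 genes were farther from an origin than 93.1%, 94.8% and 95.9% of all genes. The 2 clusters, with the same number of genes, the same strand and a similar span, thus stood near opposite extremes of origin distance, a description that rests on 2 loci.

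The lone genes were all near an origin on 1 side. HXT2 had ARS1310, at 286778 to 287062 on chromosome XIII, in its 5′ gap, 1010 bp from the start codon and 1.97 kb from midpoint to midpoint, while the next origin on its 3′ side was 82.2 kb away. HXT8 was 3.83 kb from ARS1004 and 40.0 kb from ARS1005. HXT10 was 5.63 kb from ARS603.5 on its 3′ side and 44.4 kb from ARS603. HXT9 differed in having an origin close by on both sides, ARS1004 at 3.56 kb and ARS1003 at 3.91 kb, in an interval of 7.47 kb. HXT8 and HXT9 shared ARS1004, which lies between them.

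**Figure D3:**
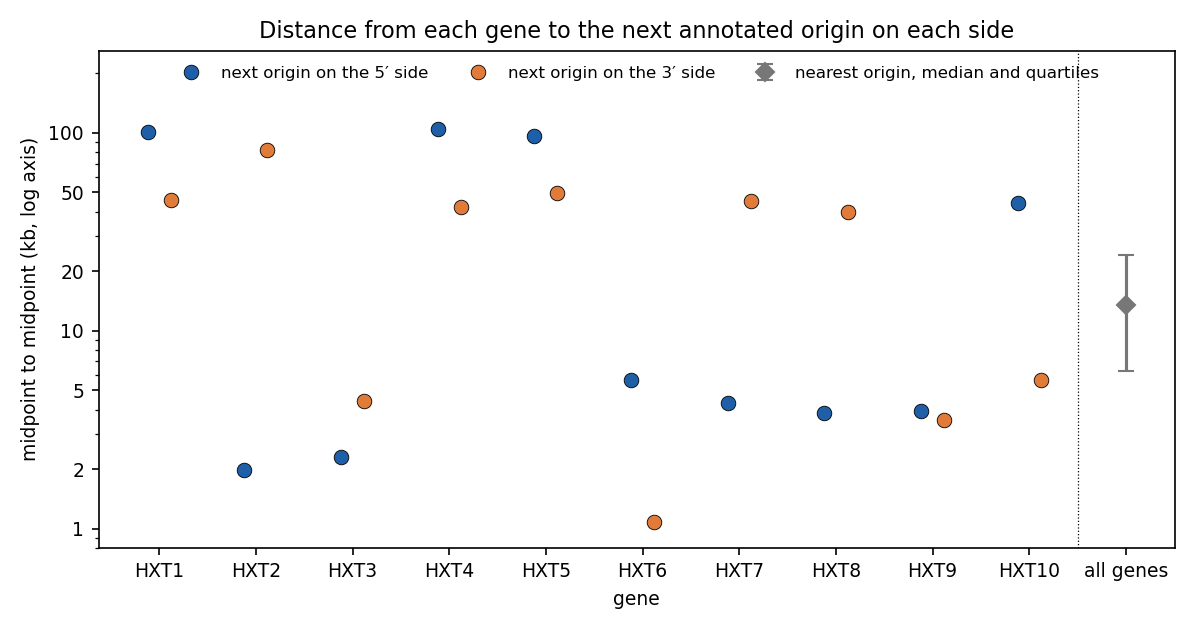
Distance in kb (log axis) from the midpoint of each HXT gene to the next origin on its 5′ side and on its 3′ side, with the median and quartiles of the distance to the nearest origin over all genes at the right. HXT3, HXT6 and HXT9 have origins at 5.66 kb or less on both sides, whereas HXT1, HXT4 and HXT5 have none nearer than 42.1 kb on either side.

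Origins also lay in the gaps of HXT genes themselves. An origin midpoint fell in the 5′ gap of HXT2, HXT3 and HXT7, which is 3 of 10 genes, against 3.74% of all genes. Long gaps have more room for an origin, and among genes with a 5′ gap of 1 kb or more the share was 12.6%, against 3 of the 7 HXT genes of that kind. Counting both sides added HXT6, whose 3′ gap holds ARS432, and gave 4 of 10 genes, against 8.66% of all genes. HXT6 and HXT7 share that gap and origin.

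Direction relative to the nearest origin was mixed. A gene transcribed away from an origin runs the same way as a replication fork that starts there, and a gene transcribed toward it meets that fork head-on. HXT2, HXT3, HXT7 and HXT8 were transcribed away from their nearest origin, and HXT1, HXT4, HXT5, HXT6, HXT9 and HXT10 toward it. These 4 of 10 genes stood beside 49.6% of all genes, a share that says nothing particular of the family. HXT6 and HXT7 faced opposite ways relative to the same origin, as ARS432 lies between them and both are on the minus strand. For HXT9, nearly midway between its origins, the direction depended on the point measured from, since its start codon was nearest to ARS1003 at 3.05 kb and from that point it ran away. The 4 genes transcribed away do not follow affinity, as they include the low-affinity HXT3 and the high-affinity HXT2 and HXT7.

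Most HXT genes, like most genes, lay more than 100 kb from a chromosome end. The median distance from gene to the nearer end was 272 kb, against 206 kb for all genes. It lay between the quartiles of all genes, 100.4 kb and 333 kb. HXT7, HXT6 and HXT3 lay 376 kb, 370.4 kb and 367 kb from the right end of chromosome IV. HXT4, HXT1 and HXT5 lay 274 kb, 270.0 kb and 266 kb from the right end of chromosome VIII, close to the middle of that chromosome. HXT2 lay at 31.2% of the length of chromosome XIII from its left end, and HXT10 lay 112 kb from the left end of chromosome VI. The 2 exceptions were on chromosome X, where HXT9 lay 19.5 kb and HXT8 lay 26.9 kb from the left end. Within 25 kb of an end was therefore 1 of 10 genes, against 5.28% of all genes. HXT9 lay 11.7 kb and HXT8 lay 19.1 kb beyond the inner edge of the annotated telomeric region TEL10L.

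Centromeres were near only the lone internal genes. HXT2 lay 19.9 kb and HXT10 lay 34.5 kb from the centromere, and 5.70% and 9.63% of all genes lie closer to one. The chromosome VIII genes lay between 181 kb and 189 kb away and the chromosome IV genes between 704 kb and 713 kb, beside a median of 214 kb over all genes. HXT2 was also the gene nearest to a retrotransposon remnant and a tRNA gene, with the LTR YMRCTAU1 at 0.344 kb and the glutamate tRNA gene TE(UUC)M at 1.10 kb beyond its stop codon. Next was HXT7, which had the LTR YDRWDELTA25 at 2.85 kb and a tRNA gene at 3.27 kb. The other 8 genes had no LTR within 8 kb, and the chromosome VIII genes had none nearer than 62.2 kb.

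Coding lengths varied little. Each of the 10 genes is annotated as 1 coding part. The shortest had 1626 bp and the longest 1779 bp, and their median of 1707 bp stood beside 1224 bp over all genes. Of the low-affinity transporters, HXT1 had 570 residues and HXT3 had 567. Of the high-affinity ones, HXT6 and HXT7 had 570 each, while HXT2 was the shortest of the family at 541. HXT5 was the longest at 592 residues, and the annotation notes an extended N-terminal domain in it. HXT8, HXT9 and HXT10 had 569, 567 and 546 residues.

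HXT4 was the exception in length. Its coding feature spanned 1684 bp, where the 560 residues stated for it require 1683 bp, a difference of 1 bp that leaves no multiple of 3. The other 9 HXT genes had exactly the length their stated protein requires. Of all genes, 90 had another length (1.54%), and 42 of these differed by 1 or 2 bp. The bases of HXT4 in L03 were not analysed here, so what the extra base pair stands for was not tested. The protein record stated for HXT4, and that for HXT7, has another version in the R64 table, while the records of the other 8 HXT genes have the same version in both.

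Outside HXT1 to HXT10, 8 further transporter genes were set beside them, HXT11, HXT13 to HXT17, the galactose transporter gene GAL2 and the glycerol transporter gene STL1. The median coding length was 1707 bp for HXT1 to HXT10 and 1704 bp for these 8, and the median 5′ gap was 1698 bp and 2016 bp. The 5′ gap exceeded the upper quartile of all genes in 10 of 10 and in 7 of 8. An origin midpoint lay in the 5′ gap of 3 of 10 and of 3 of 8. The latter were GAL2 and the pair HXT15 and HXT16, whose surroundings match, as described under other observations. Long 5′ gaps and origins in them were thus not particular to HXT1 to HXT10. The median distance to a chromosome end was 272 kb for HXT1 to HXT10, against 21.8 kb for the 8 others, and 1 of 10 genes lay within 25 kb of an end, against 5 of 8. Of the 8, HXT17 was nearest to an end at 9.98 kb and GAL2 was farthest at 290.1 kb. By position, HXT8 and HXT9 thus lay among this second list and GAL2 among the first. The median distance to an origin was 4.07 kb for HXT1 to HXT10, with 6 of 10 within 5 kb, and 10.3 kb for the 8 others, with 3 of 8 within 5 kb. GAL2 resembled HXT2 in having an origin in its 5′ gap, ARS1212 at 1.73 kb from midpoint to midpoint, and the next origin on its 3′ side 82.2 kb away.

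**Figure D4:**
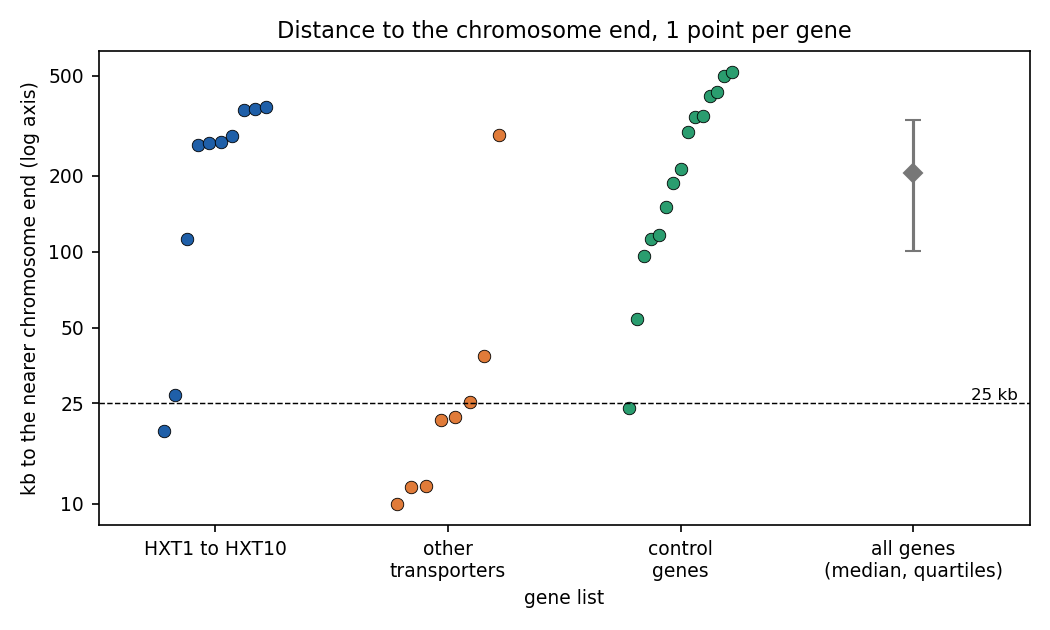
Distance in kb (log axis) from each gene to the nearer chromosome end for HXT1 to HXT10, 8 other transporters and 15 genes of their control, with the median and quartiles of all genes at the right. HXT8 at 26.9 kb and HXT9 at 19.5 kb lie apart from the rest of HXT1 to HXT10, and GAL2 at 290.1 kb lies apart from the other transporters.

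A further list held 15 genes that control hexose transport. It comprised the sensors SNF3 and RGT2, the regulators RGT1, MTH1, STD1, MIG1 and MIG2, the kinase, phosphatase and ubiquitin ligase genes SNF1, YCK1, YCK2, REG1 and GRR1, the corepressor genes CYC8 and TUP1, and the hexokinase gene HXK2. The median distance to an origin was 4.07 kb for HXT1 to HXT10 and 15.8 kb for the 15 control genes, of which 2 lay within 5 kb. The median 5′ gap was 1698 bp for HXT1 to HXT10 and 948 bp for the control genes, of which 10 of 15 exceeded the upper quartile of all genes. The 2 control genes near an origin were MTH1, at 1.73 kb from ARS430, and RGT2, at 1.95 kb from ARS409, and both had that origin in their 5′ gap. None was a close neighbour of an HXT gene. The closest was the casein kinase gene YCK1, 76.2 kb from HXT5 and inside the same 146 kb interval between ARS813 and ARS818, followed by MTH1 at 139 kb from HXT7. Differences between these lists were not tested.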

How the data were processed

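The sources used were the sample labels and the annotation of the L03 reference, which the authors derived from version R64-1-1 of the S288C genome, per the file header. Per the submitters' processing notes, the tools were Bowtie 0.12.8 and cutadapt 1.2.1. All coordinates are on L03 (ref_v2), counted from 1. Protein-coding genes were gene features with an mRNA, less 2 called dubious open reading frames, which left 5857. Distances to origins run from midpoint to midpoint, and other distances run between nearest edges. Percentages of genes count those with a smaller value. The R64 gene table was used only for names, gene order and record versions, and all 10 genes matched by locus tag. The measures were tested on simulated data, an invented annotation of 300 genes, and 5 of 5 measures returned the known answers. Members, lists and rules were chosen with earlier results of these data known. The named genes are all 10 members, their neighbours and flanking origins, and the extremes of the 2 other lists. Protein identity, promoter motifs and ontology terms had been planned and were not analysed here. Values were computed with pandas 2.3.3 and numpy 2.4.6 and drawn with matplotlib 3.10.9 under Python 3.11.15.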

Additional observations from a re-analysis of the deposited data

How the results depend on the processing

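Of 15 alternative values, 12 stayed within 1.5 times the value reported and on the same side of all genes where that applies. The median distance to an origin ran from 3.03 kb to 3.83 kb over its 4 alternatives, against 4.07 kb as reported. The median 5′ gap stayed at 1698 bp when other features ended a gap or dubious genes were kept. It was 1761 bp with HXT6 and HXT7 counted as 1 gene. Only 2 dubious genes had been left out of the whole annotation, so keeping them could change little. The median 3′ gap was 1320 bp when other features ended a gap. The remaining 3 values moved because fewer genes or another limit entered the count. With 1 gene per cluster, 2 of 6 genes were transcribed away from the nearest origin. That count depends on the gene kept: HXT6 stood for the chromosome IV cluster, whereas HXT3 and HXT7 of that cluster were transcribed away. The number of genes near a chromosome end was 0 within 10 kb and 2 within 50 kb, against 1 within 25 kb. The share of all genes was taken only at 25 kb, so the counts at the other limits have no such comparison. Comparisons with protein sequences were not run, as no protein sequences were used. With 10 genes at 6 places on 5 chromosomes, the counts are few and clustered genes are not independent. No paired analysis was possible because every value comes from a single annotation.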

Other observations

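Some pairs of loci outside HXT1 to HXT10 had matching surroundings, seen after their values were known. HXT15 on chromosome IV and HXT16 on chromosome X both had a coding length of 1704 bp, a 5′ gap of 2843 bp to a divergent thiamine synthesis gene (THI13 and THI11) and a 3′ gap of 1900 bp to SOR2 and to SOR1, the gene for sorbitol dehydrogenase. Both also had an origin in the 5′ gap, ARS403 and ARS1023. HXT11, which the annotation calls nearly identical to HXT9, had a divergent 5′ neighbour at 978 bp that the R64 table names IMA2, where HXT9 had one at 960 bp named IMA4 and HXT8 one at 800 bp named IMA5. HXT9 and HXT11 had the same coding length of 1704 bp but differed on the 3′ side, with gaps of 772 bp and 107 bp.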
